A study of Mus musculus with 16 samples.

Results

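Proteasome genes were followed at the RNA level in T cells of the OT-I line, mice whose CD8 T cells carry a single transgenic receptor for an ovalbumin peptide. The set comprised every gene row whose symbol begins with Psma, Psmb, Psmc, Psmd, Psme, Psmf or Psmg plus a digit and holds no hyphen, which gave 51 of the 54456 gene rows and left out 5 rows of hyphenated symbols. Of the 51 members, 49 passed the low-count filter, as part of 15675 genes tested; Psma8, a testis form of an outer-ring subunit, and Psmb11, the subunit of thymic cortical epithelium, did not pass it and reached at most 0.265 CPM (counts scaled to library size) in any library. Psmc3ip and Psme3ip1 match the symbols only and encode partners of other proteins, and Psme2b is a near-identical copy of Psme2, so how reads were divided between the last pair is uncertain.

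The 16 libraries formed 4 groups of 4: lymph node T cells (HFD LN) and visceral adipose tissue T cells (HFD VAT) of OT-I mice on a high fat diet with 60% of its energy from fat, and the same tissues of OT-I mice on the lean diet (lean LN and lean VAT). The diet period was 8 weeks in all groups, and the transgenic receptor is shared by all of them. The labels call the cells fresh in one place and kept in culture overnight before a T cell sort in another, and name neither the age of the mice nor whether a library pooled animals. The labels call the libraries biological replicates but do not tie them to separate mice, so the p-values measure the spread between these libraries.

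The proteasome is the protease that degrades ubiquitin-tagged proteins. Its 20S core is a stack of alpha and beta rings, in which Psmb5, Psmb6 and Psmb7 carry the cutting sites; a 19S cap of ATPases and lid subunits binds, unfolds and feeds in substrates. In lymphocytes, and in other cells exposed to interferon, Psmb8, Psmb9 and Psmb10 take the places of Psmb5, Psmb6 and Psmb7 in newly built cores, giving the immunoproteasome, and Psme1 with Psme2 form the 11S cap. This form favours peptides that fit MHC class I, and T cells express it without stimulation.

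Libraries held 40212388 to 65957407 counts, so that 3 counts equalled 0.0437 to 0.0803 CPM. HFD VAT libraries 1 and 3 and lean VAT library 1 stood apart: 11.4%, 11.5% and 13.3% of the genes well expressed in the rest of their group (median from 10 CPM up) had 3 counts or fewer there, against 0.818% to 5.45% in the other 13 libraries. The summed level of 8 T cell markers was 8055 to 11278 CPM over all libraries, with Cd8a called higher and Cd8b1 lower in VAT on both diets. Markers of other cells moved with tissue. The 8 B cell markers summed to 1525 to 2737 CPM in LN and 85.6 to 359.8 CPM in VAT, the 8 dendritic cell markers to 189 to 1048 and 62.6 to 149 CPM, the 4 natural killer cell markers to 286 to 507 and 1321 to 2727 CPM, the 8 macrophage markers to 0.0171 to 6.13 and 27.4 to 131 CPM, and the 4 endothelial markers, nearly all of it Pecam1, to 70.3 to 204 and 29.0 to 98.4 CPM. The dendritic cell sum was carried by Cd74, at 365 and 497 CPM in LN (high fat and lean means) against 33.6 and 34.3 CPM in VAT, and by H2-Aa, both of which B cells also express, whereas Itgax (0.0 and 4.13 CPM against 64.9 and 32.6 CPM in VAT) and Xcr1 (2.48 and 1.40 CPM against 23.1 and 24.7 CPM in VAT) were higher in the VAT means. Neither Itgax nor Xcr1 was called on either diet. Flt3 was lower in the VAT means (3.62 and 0.584 CPM against 0 and 0.474 CPM in VAT). Zbtb46 was higher in VAT on the high fat diet (0.207 against 0.734 CPM) and lower on the lean diet (5.52 against 2.06 CPM). Clec9a was higher in the VAT means but at most 1.26 CPM, and Siglech means were at most 0.0452 CPM. The natural killer cell sum was mostly Nkg7, which cytotoxic CD8 T cells also express, at 393 and 371 CPM in LN against 1438 and 1738 CPM in VAT. Klrb1c was also higher in the VAT means (0.840 and 0 CPM in LN against 50.2 and 21.3 CPM). Its libraries did not overlap on the high fat diet, and it was not called on either diet. Eomes went the other way (44.9 and 47.5 CPM against 25.2 and 21.4 CPM in VAT), and Ncr1 was at 0 in 15 of 16 libraries. The macrophage sum in the VAT means was mostly Cd68, the only 1 of the 8 to pass the low-count filter. Cd68 had 0.600 and 1.58 CPM in LN against 60.9 and 38.8 CPM in VAT. C1qb reached 25.7 CPM and Csf1r 9.73 CPM in HFD VAT 1, and Lyz2 16.1 CPM in HFD VAT 4 and 17.8 CPM in lean VAT 4. Adgre1, Mrc1 and Fcgr1 had group means of at most 1.33 CPM. Macrophage C1qa and endothelial Cldn5 were at 0 in every library, the 5 adipocyte markers never summed above 0.308 CPM and the 5 fibroblast markers never above 40.5 CPM. The part of these cells, and of the 3 VAT libraries, in the tissue differences below was not tested, except where values without those libraries are given.

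Proteasome genes called between VAT and LN T cells by edgeR were all higher in VAT. On the high fat diet 8 of 49 members rose and 0 fell at an adjusted p under 0.05 in edgeR's quasi-likelihood test, beside 2.68% of all genes called higher and 1.88% called lower. They were all 5 immune subunits (Psmb8, Psmb9, Psmb10, Psme1 and Psme2), the Psme2 copy Psme2b, the alpha-ring subunit Psma2 and the 19S lid subunit Psmd8. On the lean diet Psmb8, Psmb10, Psme1 and Psma2 rose, 4 of 49, and 0 fell, beside 2.12% of all genes called higher and 0.919% called lower; all 4 were among the 8 of the high fat diet. At an unadjusted p under 0.05, 19 members were higher and 0 lower on the high fat diet, beside 8.7% and 10.1% of all genes, and 13 higher and 0 lower on the lean diet, beside 8.07% and 5.73%. DESeq2 called 15 higher (7.57% of all genes) and 0 lower on the high fat diet and 7 higher (5.79%) and 0 lower on the lean diet, of DESeq2's 15, 5 were immune subunits; limma voom called 9 higher (5.35%) on the lean diet.

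Members whose 4 VAT libraries all lay above the 4 LN libraries numbered 16 on the high fat diet, 32.7% of members beside 7.21% of all genes, and 9 on the lean diet, 18.4% beside 7.24%. The median VAT-over-LN log2 fold change was 0.45 for the 49 members and -0.10 for all genes on the high fat diet, and 0.39 and -0.0029 on the lean diet. Without the 5 immune subunits and Psme2b, the median of the other 43 members was 0.43 and 0.26. Of these 43, 33 and 32 were positive, beside 7268 and 7808 of 15675 genes. Called higher were 2 and 1 of them, beside 2.68% and 2.12% of all genes. In these bulk libraries, fewer cells that express a gene and less RNA per cell cannot be told apart. Without the 3 VAT libraries named above, 6 members were called higher on the high fat diet (1.95% of all genes), and 3 on the lean diet (1.74%), Psmb8, Psmb10 and Psme1 in both.

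Among the catalytic subunits of the immunoproteasome, Psmb10 had the largest fitted VAT-over-LN difference on both diets. The order of these genes was not tested. Psmb10, which provides the trypsin-like site in place of Psmb7, had 182, 199.8, 165 and 176 CPM in the HFD LN libraries numbered 1 to 4 and 770.0, 460.5, 882 and 579 CPM in the HFD VAT libraries. It had 158, 234, 274 and 161 CPM in lean LN and 904, 529.7, 533 and 477 CPM in lean VAT. Every VAT library exceeded every LN library on both diets, and lean VAT 1 stood well above the other 3 lean VAT libraries. The log2 fold change of VAT over LN was 1.90 ± 0.26 (SE) on the high fat diet, a 3.72-fold difference with an edgeR adjusted p of 0.000497, and 1.56 ± 0.26 (SE) on the lean diet, a 2.95-fold difference with an edgeR adjusted p of 0.00262. Without the 3 VAT libraries it was 1.51 and 1.28 on the log2 scale, called in both.

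Psmb8 replaces Psmb5 and carries the chymotrypsin-like site. Its levels were 265, 402, 461 and 309 CPM in HFD LN against 802, 712, 1082 and 1003 CPM in HFD VAT. In the lean groups they were 337, 489, 350.4 and 248 CPM in LN against 1456, 813, 666 and 792 CPM in VAT. LN and VAT did not overlap on either diet, and again lean VAT 1 was the highest library of all. VAT exceeded LN by 1.32 ± 0.27 (SE) on the log2 scale on the high fat diet (edgeR adjusted p = 0.0121) and 1.39 ± 0.27 (SE) on the lean diet (edgeR adjusted p = 0.0111). The lean call was lost when only lean LN and lean VAT entered the fit, at an edgeR adjusted p of 0.0572. Without the 3 VAT libraries the differences were 1.24 and 1.06, both called.

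Psmb9 replaces Psmb6 and has a cutting preference that suits MHC class I ligands. It had 253, 276, 360.1 and 233 CPM in HFD LN and 1024, 674, 849 and 733 CPM in HFD VAT, with a wide gap between the groups. The lean LN libraries were uneven, at 172, 543, 324 and 169 CPM, and the lean VAT libraries had 497, 561, 576 and 761 CPM, so lean LN 2 lay inside the VAT range. The log2 fold change was 1.55 ± 0.33 (SE) on the high fat diet (edgeR adjusted p = 0.0136) and 0.99 ± 0.32 (SE) on the lean diet, where it missed the threshold (edgeR adjusted p = 0.151). The high fat call was lost without HFD LN 4 (edgeR adjusted p = 0.0534) and without the 3 VAT libraries (edgeR adjusted p = 0.114, log2 fold change 1.31). The lean difference passed without lean LN 2 (edgeR adjusted p = 0.00931) and with limma voom (adjusted p = 0.00323). Dropping HFD LN 4 took the number of members called higher on the high fat diet from 8 to 5, beside 1.84% of all genes.

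Both 11S activator genes rose with the immune catalytic subunits on the high fat diet. Psme1, the alpha subunit of the cap, had 505, 392, 477 and 379 CPM in HFD LN and 843, 1064, 1289 and 1066 CPM in HFD VAT. In the lean groups it had 493, 461, 447 and 472 CPM in LN and 1517, 782, 934 and 716 CPM in VAT. The lean LN libraries were the most even of the 4 groups, with an SD of 19.4 CPM, and no LN library reached a VAT library on either diet. On the log2 scale VAT exceeded LN by 1.28 ± 0.21 (SE) on the high fat diet (edgeR adjusted p = 0.00216) and 1.08 ± 0.21 (SE) on the lean diet (edgeR adjusted p = 0.0100). With only the lean groups in the fit the lean value lost its call (edgeR adjusted p = 0.0627), and that fit called 1 member higher, Psmb10, beside 1.97% of all genes. Without the 3 VAT libraries the differences were 1.26 and 0.76, both called.

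Psme2, the beta subunit of the same cap, had 391, 554, 351 and 418 CPM in HFD LN and 1132, 944, 916 and 883 CPM in HFD VAT. Lean LN libraries had 471, 618, 423 and 353 CPM and lean VAT libraries had 1286, 736, 662 and 639.8 CPM. The groups were apart on both diets, narrowly on the lean diet, where the highest LN and lowest VAT library lay close together. The log2 fold change was 1.18 ± 0.24 (SE) on the high fat diet (edgeR adjusted p = 0.0102) and 0.83 ± 0.24 (SE) on the lean diet, which missed the threshold (edgeR adjusted p = 0.0852) and passed it with DESeq2 (adjusted p = 0.0187) and with limma voom (adjusted p = 0.00795). Without the 3 VAT libraries the Psme2 values were 1.08 and 0.51. The copy Psme2b ranged over 78.5 to 137 CPM in HFD LN and 178 to 275 CPM in HFD VAT, with a log2 fold change of 1.03 ± 0.23 (SE) (edgeR adjusted p = 0.0184) that lost its call without the 3 VAT libraries (edgeR adjusted p = 0.0506) and without HFD LN 3, HFD LN 4 or HFD VAT 1 (0.0609, 0.0636 and 0.0604). Its lean ranges were 88.7 to 120.4 and 162 to 262 CPM, with a log2 fold change of 0.81 ± 0.23 (SE) (edgeR adjusted p = 0.0827).

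**Figure D1:**
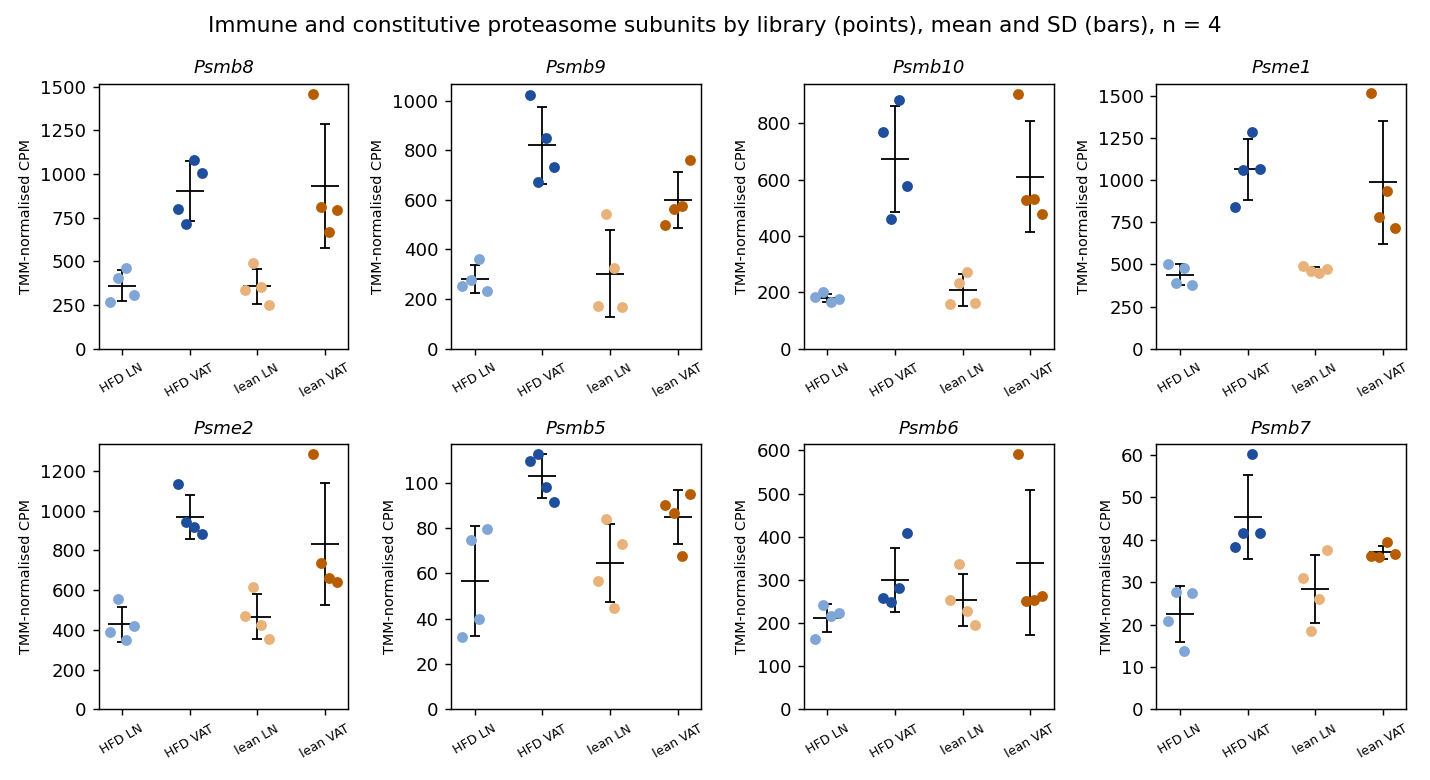
TMM-normalised CPM (linear axes from 0) of the 5 immune subunits and the 3 constitutive catalytic subunits in each library (points), with the mean (wide bar) and SD (whiskers) of 4 libraries a group. Psmb8, Psmb10, Psme1 and Psme2 are higher in all VAT than in all LN libraries of the same diet, whereas lean LN 2 at 543 CPM lies within the lean VAT range of Psmb9.

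Promoter windows of RefSeq, from 250 bases before to 50 after the gene start on GRCm38.p6, were matched to 43 of the 51 members and are shown for immune and constitutive subunits to set the 2 kinds of promoter side by side. Letters searched on both strands were the interferon-stimulated response element core (GAAA runs separated by any pair of bases), the gamma-activated site TTCNNNGAA and the antioxidant response element TGACNNNGC, which the factors Nfe2l1 and Nfe2l2 bind. The CCAAT box CCAAT was searched too. Matches of the first 3 motifs are in capitals, and no matches overlap in the windows shown. The windows of 3 immune subunits come first and those of 2 constitutive subunits after them.
Psmb8 at chr17:34197945-34198244, plus strand: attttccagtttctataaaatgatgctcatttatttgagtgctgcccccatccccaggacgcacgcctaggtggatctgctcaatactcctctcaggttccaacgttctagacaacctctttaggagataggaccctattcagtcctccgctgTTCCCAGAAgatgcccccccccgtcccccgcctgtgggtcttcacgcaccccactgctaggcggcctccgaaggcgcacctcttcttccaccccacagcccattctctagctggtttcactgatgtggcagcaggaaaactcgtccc
Psmb9 at chr17:34187281-34187580, minus strand: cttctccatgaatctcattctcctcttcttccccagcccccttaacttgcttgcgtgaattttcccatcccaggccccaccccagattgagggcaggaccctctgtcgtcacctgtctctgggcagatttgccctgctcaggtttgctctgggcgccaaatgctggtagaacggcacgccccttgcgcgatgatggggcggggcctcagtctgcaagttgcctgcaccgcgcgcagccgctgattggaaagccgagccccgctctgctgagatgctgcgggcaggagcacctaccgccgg
Psme1 at chr14:55578244-55578543, plus strand: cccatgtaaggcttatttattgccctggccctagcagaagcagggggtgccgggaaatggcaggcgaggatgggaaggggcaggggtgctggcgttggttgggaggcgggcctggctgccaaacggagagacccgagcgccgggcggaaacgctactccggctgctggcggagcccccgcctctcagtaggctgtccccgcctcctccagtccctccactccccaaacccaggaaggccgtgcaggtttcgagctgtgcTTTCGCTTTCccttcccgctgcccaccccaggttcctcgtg
Psmb5 at chr14:54617946-54618245, minus strand: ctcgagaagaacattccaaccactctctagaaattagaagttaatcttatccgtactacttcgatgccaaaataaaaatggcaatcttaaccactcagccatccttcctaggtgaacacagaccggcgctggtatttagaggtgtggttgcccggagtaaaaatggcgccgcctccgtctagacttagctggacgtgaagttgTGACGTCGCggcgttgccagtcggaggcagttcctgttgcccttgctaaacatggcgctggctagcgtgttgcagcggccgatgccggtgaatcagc
Psmb6 at chr11:70525107-70525406, plus strand: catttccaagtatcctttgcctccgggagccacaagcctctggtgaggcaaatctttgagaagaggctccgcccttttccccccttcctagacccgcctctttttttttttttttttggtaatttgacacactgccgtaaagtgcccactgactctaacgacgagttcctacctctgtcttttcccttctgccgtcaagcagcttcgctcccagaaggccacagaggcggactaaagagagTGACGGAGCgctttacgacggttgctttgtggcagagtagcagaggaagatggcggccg

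The Psmb8 window held a gamma-activated site 97 bases before the gene start, and the Psme1 window an interferon-stimulated response element core that begins 9 bases after it. The Psmb9 window held neither, and the windows of Psmb10 and Psme2, not shown, held neither as well. Each interferon motif was thus found for 1 of 5 immune subunits. The Psmb9 window shared 275 of its 300 bases with the window of Tap1, the peptide transporter gene that is read in the opposite direction. Psmb5 and Psmb6 each held an antioxidant response element, 47 and 9 bases before the start, and Psmb7 had no window. Over all members with a window, 5 of 43 held the interferon-stimulated core (Psme1 and the non-immune Psmb3, Psmd4, Psmd9 and Psmg4). The gamma-activated site was held by 3 of 43, the antioxidant element by 6 of 43 and a CCAAT box by 16 of 43, Psmb9 among them. Shares of 32851 promoter windows were 3.44%, 8.3%, 12.4% and 37.4%. Each member was counted once, while a gene such as Psme2 can have more than 1 window, so counts and shares differ in unit. A match describes the letters and says nothing of binding in these cells.

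The constitutive catalytic subunits were higher in VAT in each mean, by less, and none passed the test. Psmb5, which carries the chymotrypsin-like site of the constitutive core, had 31.8, 74.9, 39.9 and 79.8 CPM in HFD LN and 109.7, 113, 98.2 and 91.5 CPM in HFD VAT, with LN values spread widely and all below VAT. In the lean groups it had 56.9, 83.8, 44.7 and 72.9 CPM in LN and 90.3, 86.5, 67.7 and 95.2 CPM in VAT, which overlapped. Fitted log2 fold changes were 0.86 ± 0.32 (SE) (edgeR adjusted p = 0.160) and 0.40 ± 0.32 (SE) (edgeR adjusted p = 0.774) on the high fat and lean diets.

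Psmb6, the caspase-like subunit, had 164, 242, 217 and 224 CPM in HFD LN and 258, 249, 282 and 408 CPM in HFD VAT. Its lean values were 253, 336, 227 and 195 CPM in LN and 593, 252, 254 and 263 CPM in VAT. The high fat groups came close without touching and the lean groups overlapped, with lean VAT 1 far above the other 3. The log2 fold change was 0.50 ± 0.29 (SE) (edgeR adjusted p = 0.408) and 0.43 ± 0.29 (SE) (edgeR adjusted p = 0.656), and the lean value was -0.01 without the 3 VAT libraries.

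Psmb7, the trypsin-like subunit, had 20.8, 27.7, 13.9 and 27.4 CPM in HFD LN and 38.3, 41.5, 60.2 and 41.5 CPM in HFD VAT. In the lean groups it had 31.0, 18.6, 26.1 and 37.6 CPM in LN and 36.2, 36.0, 39.4 and 36.7 CPM in VAT. The high fat groups did not overlap, while lean LN 4 lay inside the lean VAT range. Its log2 fold change was 1.02 ± 0.41 (SE) (edgeR adjusted p = 0.190) and 0.39 ± 0.40 (SE) (edgeR adjusted p = 0.882). DESeq2 called Psmb5 and Psmb7 higher on the high fat diet (adjusted p = 0.0213 and 0.000946), so that call depended on the tool.

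Within a library, the immune forms outweighed the interchangeable constitutive forms by more in VAT than in LN. The log2 ratio of the summed CPM of Psmb8, Psmb9 and Psmb10 to that of Psmb5, Psmb6 and Psmb7 was 1.51 ± 0.34 (SD, n = 4) in HFD LN and 2.41 ± 0.31 in HFD VAT. In the lean groups it was 1.27 ± 0.38 in LN and 2.25 ± 0.17 in VAT. The summed ratio was thus 1.87-fold and 1.97-fold higher in VAT on the high fat and lean diets, with no overlap of libraries on either. Without the 3 VAT libraries the VAT-minus-LN difference in the summed log2 ratio was 0.64 on the high fat diet and 1.06 on the lean diet. The mean of the 3 pair ratios overlapped on the high fat diet, at 1.56 to 2.61 in LN and 2.52 to 3.06 in VAT. Its VAT-minus-LN difference was 0.75 on the high fat diet and 0.95 on the lean diet, where libraries did not overlap. These ratios are descriptions without a p-value, and since gene lengths are not taken into account only their differences between libraries are read.

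The 3 pairs did not part the tissues equally. Psmb8 to Psmb5 separated LN from VAT on the lean diet, with log2 ratios of 1.76 to 2.97 and 3.06 to 4.01, but overlapped on the high fat diet (1.96 to 3.53 and 2.66 to 3.46). Psmb9 to Psmb6 did the opposite, at 0.05 to 0.73 and 0.84 to 1.99 on the high fat diet and an overlapping -0.56 to 0.69 and -0.25 to 1.53 on the lean diet. Psmb10 to Psmb7 separated the lean groups (2.10 to 3.66 and 3.70 to 4.64) and overlapped on the high fat diet. The mean VAT-minus-LN differences in log2 ratio ranged from 0.37 for Psmb8 to Psmb5 on the high fat diet to 1.12 for Psmb10 to Psmb7 on the lean diet. The first of these was 0.63 without HFD LN 3 and 0.11 without HFD LN 4.

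The caps were set against each other in the same way. The log2 ratio of Psme1 to the median 19S member was 1.51 ± 0.19 in LN and 2.56 ± 0.19 in VAT on the high fat diet and 1.45 ± 0.09 and 2.36 ± 0.63 on the lean diet, without overlap. For Psme2 the VAT-minus-LN difference was 0.97 and 0.70, with overlap on the lean diet, where it was 0.40 without lean VAT 1. As a share of the CPM of all 51 members, the 5 immune subunits made up 22.1% ± 0.580 in HFD LN, 34.9% ± 1.84 in HFD VAT, 23.0% ± 3.88 in lean LN and 33.4% ± 2.86 in lean VAT. The 3 constitutive catalytic subunits stayed at mean shares of 3.55% to 4.44%.

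**Figure D2:**
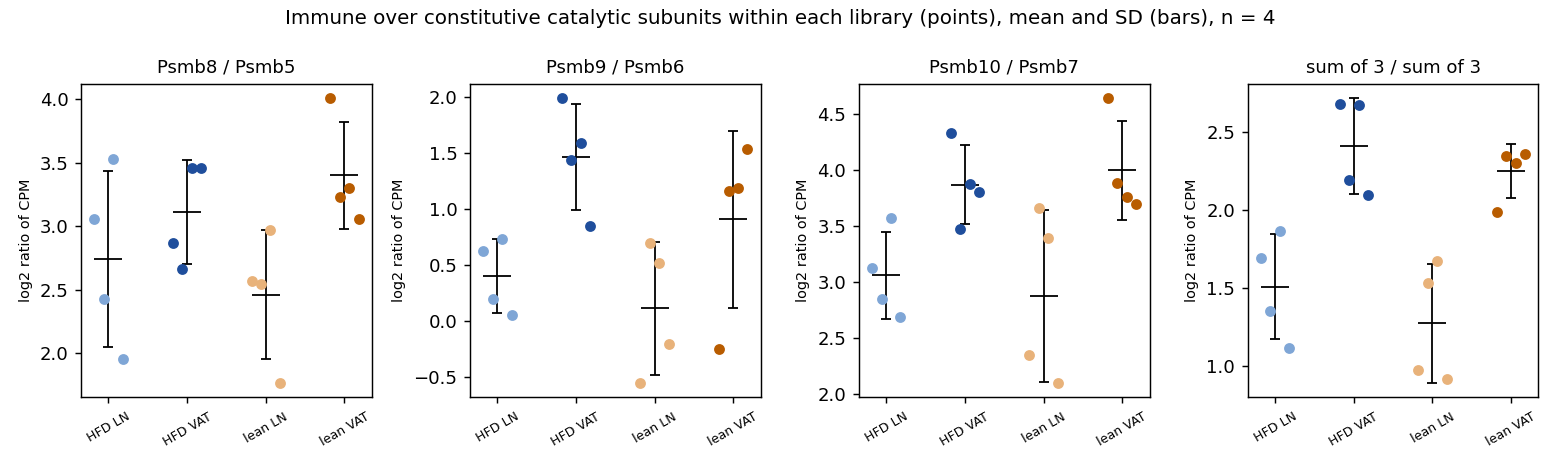
Log2 ratios of TMM-normalised CPM within each library (points), with mean and SD of 4 libraries a group, for the 3 exchanged pairs and the summed catalytic subunits. The summed ratio lies at 1.11 to 1.87 in HFD LN against 2.10 to 2.68 in HFD VAT, and at 0.92 to 1.67 in lean LN against 1.99 to 2.36 in lean VAT.

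Levels were compared between genes only per length, as CPM per kilobase of the longest transcript. In HFD LN the order of these 8 subunits was Psme2 at 445 ± 91.6 CPM per kilobase (SD, n = 4), Psme1 at 394 ± 55.6, Psmb6 at 265 ± 42.0, Psmb8 at 221 ± 54.3, Psmb9 at 207 ± 41.5, Psmb10 at 138 ± 11.1, Psmb5 at 62.9 ± 27 and Psmb7 at 19.3 ± 5.63. The first 2, and the next 3, lay within each other's spread. In HFD VAT Psmb6, at 375 ± 92.5 CPM per kilobase, stood below Psmb9 at 606 ± 114, Psmb8 at 553 ± 106 and Psmb10 at 513 ± 144. Psmb6 was above its partner Psmb9 per kilobase in HFD LN and lean LN means and below it in HFD VAT and lean VAT means, at 317 ± 75.5 against 223 ± 130.3 in lean LN and 426 ± 211 against 443 ± 83.9 in lean VAT. Averaged over all libraries, the lowest and highest members per kilobase were Psmb10 at 319 and Psmb8 at 391 among the immune catalytic subunits, Psmb4 at 149 and Psmb3 at 315 among the beta subunits without a cutting site, Psmc6 at 56.1 and Psmc4 at 188 among the 19S ATPases, and Psmd1 at 37.9 and Psmd4 at 177 among the other 19S subunits. The highest tested alpha subunit was Psma7 at 318, and the assembly chaperones ran from Psmg3 at 15.5 to Psmg4 at 66.4. The lowest of all tested members was Psme4 at 3.11 CPM per kilobase.

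Constitutive core subunits other than the catalytic 3 leaned the same way. All 14 tested subunits of the constitutive 20S core, catalytic ones included, had a positive VAT-over-LN log2 fold change on both diets. Over all genes, 7268 and 7808 of 15675 were positive. The medians of the 14 were 0.64 and 0.50. The same 1 gene passed the test on both diets, beside 2.68% and 2.12% of all genes called higher. That gene was Psma2, an alpha-ring subunit of the gate through which substrates enter. It had 203, 271, 246 and 239 CPM in HFD LN and 609, 351, 572 and 535 CPM in HFD VAT, and 229.8, 189, 265 and 197 CPM in lean LN and 565, 340.1, 384 and 313 CPM in lean VAT. Its libraries did not overlap on either diet. Its log2 fold change was 1.11 ± 0.21 (SE) on the high fat diet (edgeR adjusted p = 0.00743) and 0.86 ± 0.21 (SE) on the lean diet (edgeR adjusted p = 0.0434), and the lean call was lost without any 1 of the lean libraries other than lean VAT 4, at edgeR adjusted p-values of up to 0.143, and without the 3 VAT libraries (edgeR adjusted p = 0.108). With every lean library kept, the lean call was also lost with RLE scaling (edgeR adjusted p = 0.0580) and upper quartile scaling (edgeR adjusted p = 0.0587). The same held without a low-count filter (edgeR adjusted p = 0.140) and with only the lean groups in the fit (edgeR adjusted p = 0.116). Among the beta subunits without a cutting site, log2 fold changes ran from 0.25 (Psmb1) to 0.98 (Psmb4) on the high fat diet and from 0.15 (Psmb1) to 0.97 (Psmb2) on the lean diet.

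The 19S cap did not lean as far. Of its 17 members, 12 had a positive log2 fold change on each diet, beside 7268 and 7808 of 15675 genes. Medians were 0.29 and 0.13. On the high fat diet 1 was called higher and 4 were higher at an unadjusted p under 0.05, beside 2.68% and 8.7% of all genes. On the lean diet 0 were called and 1 was higher at an unadjusted p under 0.05, beside 2.12% and 8.07%. Neither DESeq2 nor limma voom called any on the lean diet. The called gene was Psmd8, a lid subunit, with 147, 181, 158 and 133 CPM in HFD LN and 298, 364, 309 and 269.5 CPM in HFD VAT, without overlap. Lean LN had 329, 272, 129 and 223 CPM and lean VAT had 324, 280.3, 189.6 and 251 CPM, which covered the same range. Psmd8 had a log2 fold change of 1.00 ± 0.25 (SE) on the high fat diet (edgeR adjusted p = 0.0355) and 0.13 ± 0.25 (SE) on the lean diet (edgeR adjusted p = 0.972). The high fat call was lost without any 1 of the high fat libraries other than HFD VAT 4, at edgeR adjusted p-values of up to 0.104, without the 3 VAT libraries (edgeR adjusted p = 0.119), without a low-count filter (edgeR adjusted p = 0.0967) and with limma voom (adjusted p = 0.0819). The lean value was -0.02 without the 3 VAT libraries and -0.08 without lean LN 3. Psmc5, an ATPase of the ring that unfolds substrates, came closest to a call among the others, at 0.94 ± 0.26 (SE) on the high fat diet (edgeR adjusted p = 0.0571, called by DESeq2 and limma voom), with 90.0 to 203 CPM in LN and 252 to 326 CPM in VAT.

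The remaining activators, the inhibitor and the assembly chaperones had 0 calls in both tissue comparisons with edgeR, and 1 of them, Psmd10, had an unadjusted p under 0.05, on the high fat diet; DESeq2 and limma voom called 0 of them, and edgeR without the 3 VAT libraries called Psmd10 on the high fat diet. Psme3, the nuclear activator, had log2 fold changes of 0.74 and 0.71, and Psme4, the large single-chain activator, of -1.40 and -1.89, with edgeR adjusted p-values of 0.302, 0.448, 0.549 and 0.480. Psmf1, the proteasome inhibitor PI31, had -0.63 and -0.44. The chaperones that help the rings assemble had medians of 0.08 and 0.20.

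**Figure D3:**
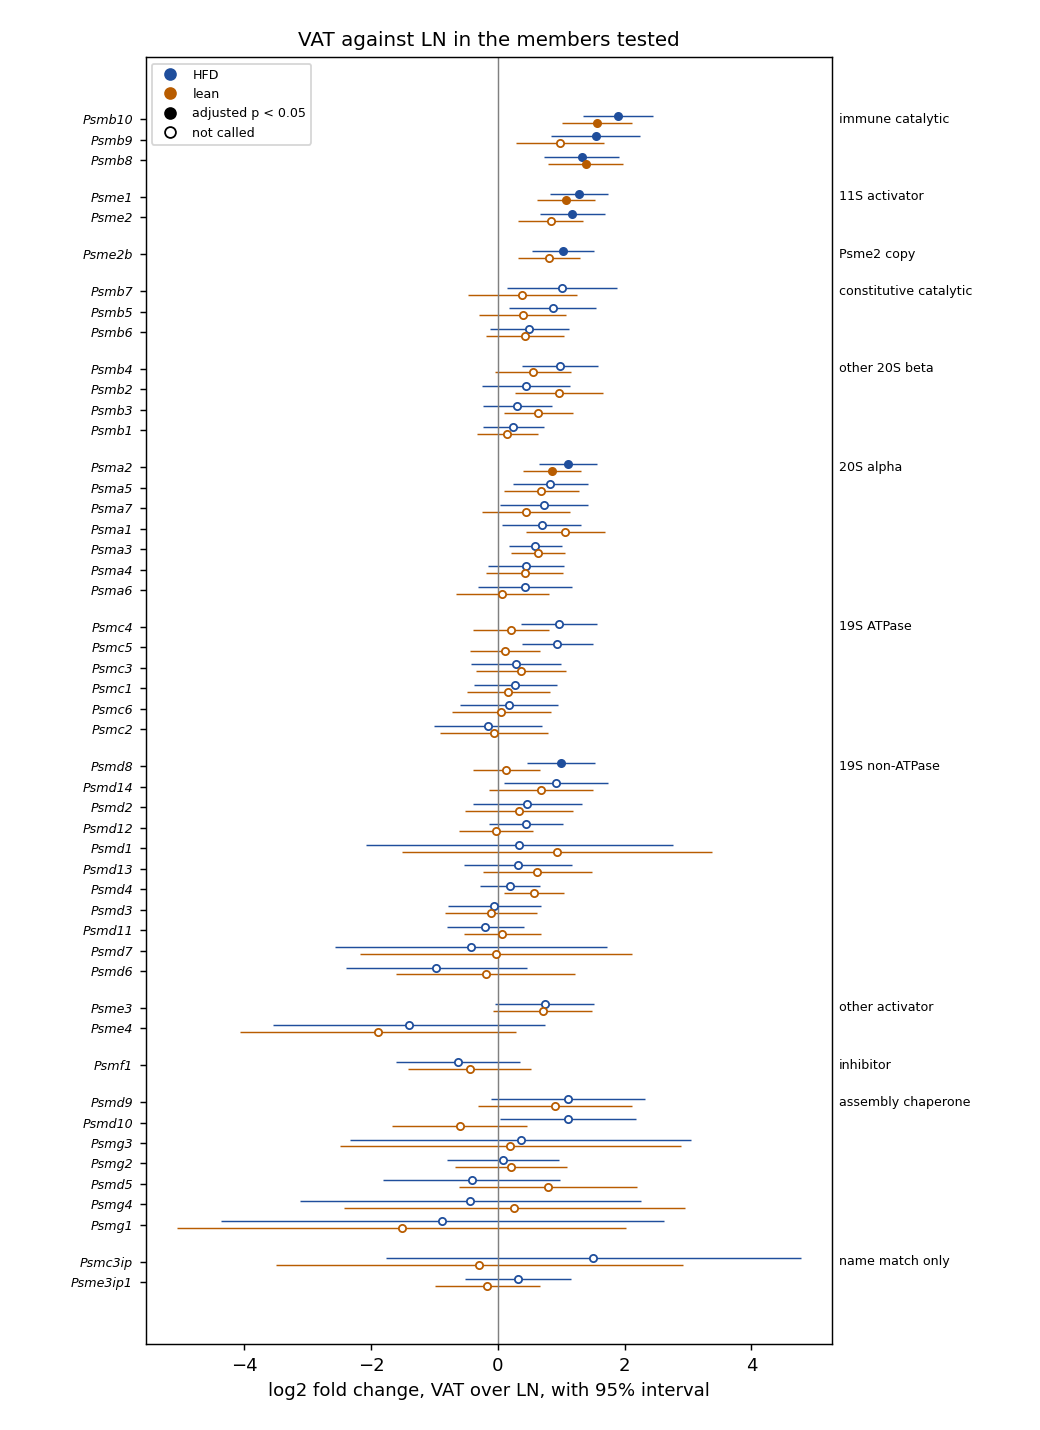
VAT-over-LN log2 fold change with 95% interval for the 49 tested members, grouped by role, on the high fat diet and the lean diet (filled points: adjusted p under 0.05). Called members number 8 and 4, all to the right of 0, while the intervals of most 19S members and of all assembly chaperones other than Psmd10 on the high fat diet span 0.

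Members differed in how evenly their libraries read. The median coefficient of variation within groups was 22.3% for the 5 immune subunits, 29.8% for the 17 19S members and 45.2% for the 7 assembly chaperones. Some genes were at or near 0 in single libraries: Psmd1 had 1 count and Psmd7 had 2 counts in HFD VAT 3, where the other HFD VAT libraries had 60.8 to 209 and 154 to 171 CPM. Psmg1 had 0 counts in HFD VAT 1 and in lean VAT 1, Psmg3 in HFD VAT 3, Psmg4 in HFD VAT 2 and Psmc3ip in HFD VAT 4. All 7 cases lie in VAT libraries, and 5 of them in the 3 named above. After removal of group means, log2 CPM over the 16 libraries gave a median pairwise correlation of 0.42 among the immune subunits (10 pairs), 0.23 among the constitutive core subunits (91 pairs) and -0.01 among the 19S members (136 pairs). In the same order, single pairs ran over -0.25 to 0.65, -0.71 to 0.89 and -0.70 to 0.91. These correlations are descriptions, and the genes of a pair share the same libraries. The part of single libraries in them was not tested.

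No member was called between the diets. In VAT, 0 of 49 members were called between the high fat and lean diets in either direction by edgeR, beside 0.00638% of all genes called higher and 0.051% called lower. In LN, 0 members were called, beside 0% of all genes in each direction. Testing whether diet acted differently in VAT and LN likewise called 0 members, beside 0% of all genes called higher and 0.0191% lower. At an unadjusted p under 0.05 these comparisons held 2, 2 and 3 members, 4.08%, 4.08% and 6.12% of the 49, beside 8.08%, 3.37% and 6.16% of all genes, and DESeq2 and limma voom called 0 members in each. The comparisons share libraries with the tissue comparisons above.

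The intervals show what these groups of 4 could not resolve. In VAT the high-fat-over-lean log2 fold change was -0.05 (95% interval -0.63 to 0.53) for Psmb8, 0.45 (95% interval -0.23 to 1.14) for Psmb9 and 0.14 (95% interval -0.40 to 0.68) for Psmb10. It was 0.11 (95% interval -0.34 to 0.56) for Psme1 and 0.22 (95% interval -0.28 to 0.73) for Psme2. For the constitutive Psmb5, Psmb6 and Psmb7 it was 0.28 (95% interval -0.41 to 0.97), -0.19 (95% interval -0.81 to 0.43) and 0.29 (95% interval -0.57 to 1.15). All 8 intervals include 0, the narrowest being that of Psme1. In LN the same 8 values ran from -0.34 (Psmb7) to 0.01 (Psmb8).

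The tissue difference of Psmb9 passed the threshold on the high fat diet and missed it on the lean diet, but the test of the difference between diets gave 0.56 ± 0.45 (SE) with an edgeR adjusted p of 1.00, and 0.12 to 0.77 with 1 library left out. For Psme2 that test gave 0.34 ± 0.33 (SE) with an edgeR adjusted p of 1.00 and ran over 0.18 to 0.64 with 1 library left out. Neither is shown to depend on diet. In VAT, 3 members had all 4 high fat libraries above all 4 lean ones, 6.12% of members beside 1.12% of all genes. They were Psmd10, an assembly chaperone also known as gankyrin (70.0 to 134 against 7.44 to 60.5 CPM), Psmc5 (252 to 326 against 126 to 247 CPM) and Psmd14, the lid deubiquitinase (175 to 257 against 76.1 to 158 CPM). Their edgeR adjusted p-values were 0.526, 0.580 and 0.634.

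**Figure D4:**
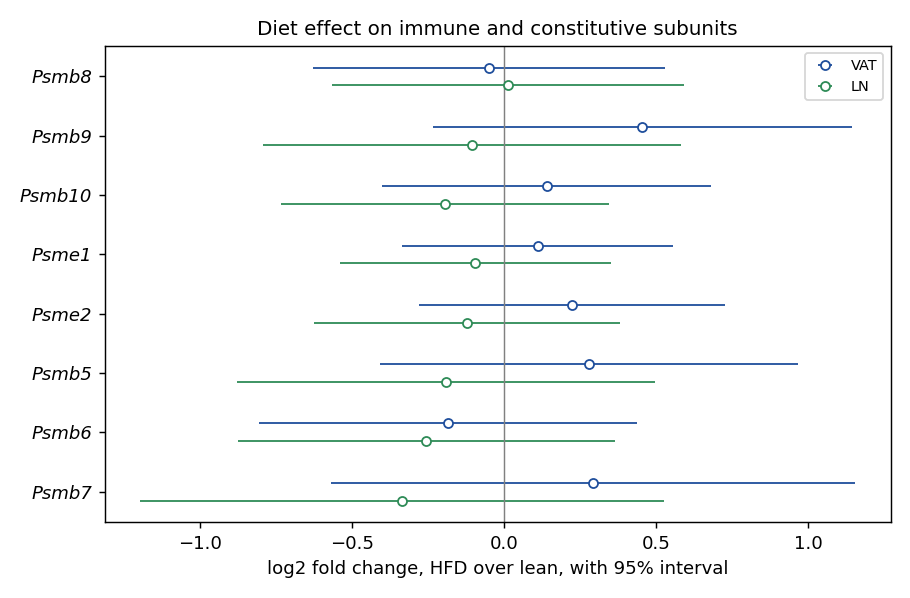
High-fat-over-lean log2 fold change with 95% interval for the 5 immune and 3 constitutive catalytic subunits, in VAT and in LN (n = 4 libraries a group). All intervals include 0, and the largest value in VAT is 0.45 for Psmb9.

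Genes of the wider pathway, 36 of them tested, covered proteasome assembly and its transcription, ubiquitin supply, and peptide loading. Between VAT and LN on the high fat diet 7 were called higher in VAT and 1 lower, beside 2.68% and 1.88% of all genes. On the lean diet 3 rose and 0 fell, beside 2.12% and 0.919%, and 7 were higher and 1 lower at an unadjusted p under 0.05, beside 8.07% and 5.73%. The diet comparisons in edgeR gave 0 calls, with 1 in VAT and 1 in LN at an unadjusted p under 0.05, beside 8.08% and 3.37%. Their median log2 fold change was 0.24 and 0.12 on the high fat and lean diets.

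Of the listed regulators of transcription shown here, Nlrc5 was called on both diets and Irf1 on the high fat diet. Nlrc5, the transactivator of MHC class I genes, had 40.5 to 140.1 CPM in HFD LN and 167 to 614 CPM in HFD VAT, with 2.17 ± 0.42 (SE) on the high fat diet (edgeR adjusted p = 0.00794) and 2.04 ± 0.42 (SE) on the lean diet (edgeR adjusted p = 0.0144). Irf1, an interferon regulatory factor that binds immune subunit promoters, was higher in VAT than in LN on the high fat diet (1.37 ± 0.25 (SE), edgeR adjusted p = 0.00438). Its lean value was 0.72 (edgeR adjusted p = 0.166). Nfe2l1, which drives constitutive subunits when the proteasome is impaired, had 0.33 and 1.39 without a call. Ngly1, the glycanase that activates Nfe2l1, was lower in VAT than in LN by 1.65 on the log2 scale on the high fat diet (edgeR adjusted p = 0.0493). Irf8 and Nfe2l2 were not called, at 2.17 and 0.75 (edgeR adjusted p = 0.419 and 0.962) and -0.04 and -0.33 (edgeR adjusted p = 0.985 and 0.870).

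Among the genes of peptide loading and assembly, Tapbp was called on both diets and Tap1, Tap2 and Pomp on the high fat diet. Tapbp, which bridges the peptide transporter to MHC class I, had log2 fold changes of 1.60 ± 0.19 (SE) and 1.14 ± 0.19 (SE) (edgeR adjusted p = 0.000182 and 0.00316). The transporter subunits Tap1 and Tap2, neighbours of Psmb8 and Psmb9 in the MHC region, were higher in VAT than in LN on the high fat diet. Their differences were 1.26 ± 0.33 (SE) and 0.64 ± 0.17 (SE) on the log2 scale (edgeR adjusted p = 0.0485 and 0.0483). On the lean diet they were 1.22 and 0.30 (edgeR adjusted p = 0.0723 and 0.534). Tap2 had 254 to 286 CPM in HFD LN, all below the 340 to 463 CPM of lean LN, and was not called between the diets. In that comparison 2 of 36 pathway genes were lower without overlap, 5.56% beside 1.19% of all genes. The VAT means of Tap2 were 424 CPM on the high fat diet and 481 CPM on the lean diet. Calls of pathway genes were not followed through the alternative settings. Pomp, the chaperone that matures new cores, had 59.7 to 125 CPM in HFD LN and 212 to 350.1 CPM in HFD VAT. Its VAT-over-LN value was 1.61 ± 0.34 (SE) on the high fat diet (edgeR adjusted p = 0.0142) and 0.74 on the lean diet (edgeR adjusted p = 0.345). The peptidases Erap1, Tpp2, Npepps and Lap3 were not called on either diet; Erap1 had 0.66 and 0.32 (edgeR adjusted p = 0.633 and 0.966). Ubb, a ubiquitin gene, had 2138 to 2559 CPM in HFD LN and 4106 to 4349 CPM in HFD VAT and was called on both diets at 0.83 ± 0.11 (SE) and 0.73 ± 0.11 (SE) (edgeR adjusted p = 0.000335 and 0.00124).

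**Figure D5:**
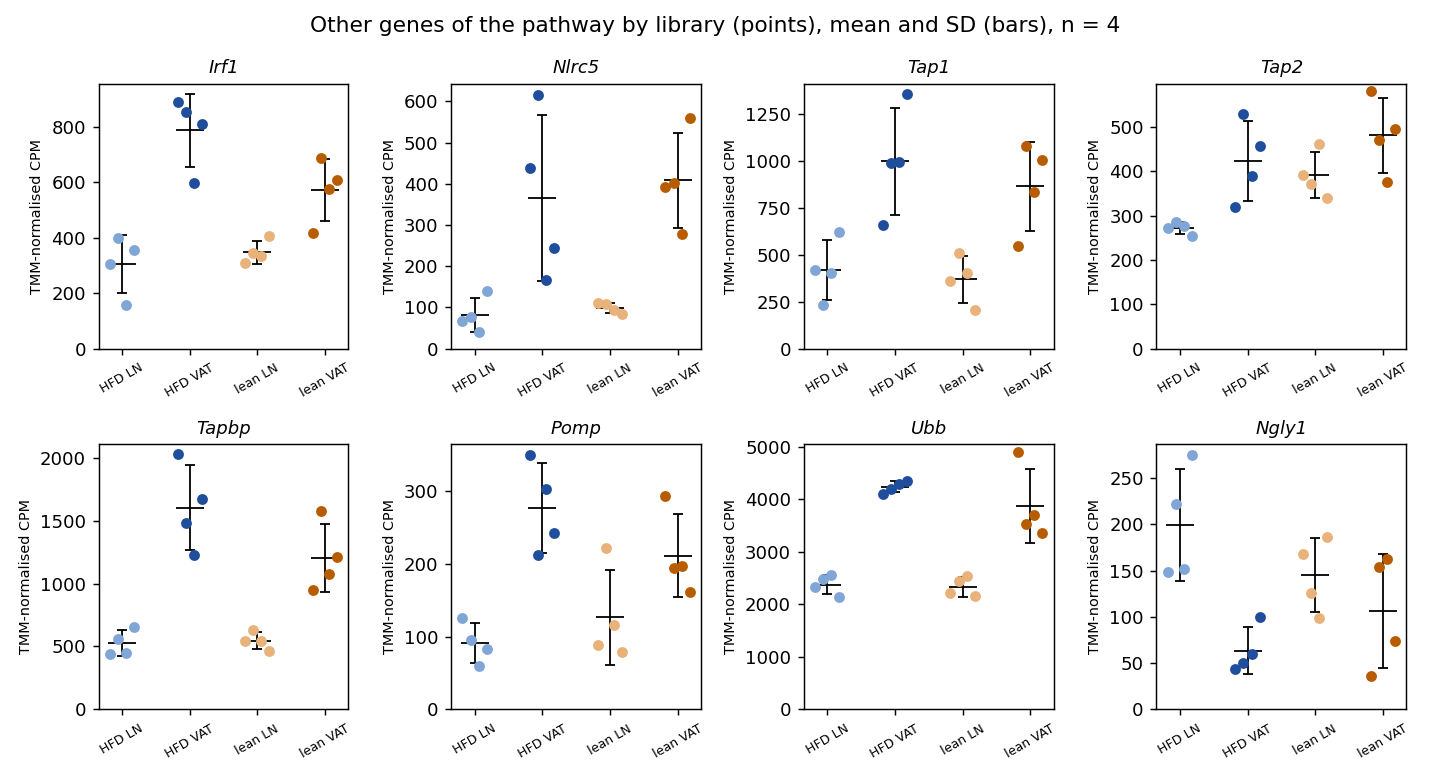
TMM-normalised CPM (linear axes from 0) of the 8 pathway genes called in VAT on the high fat diet, by library (points), with mean and SD of 4 libraries a group. Ngly1 is lower in HFD VAT, at 44.1 to 99.6 CPM, than in HFD LN, at 148 to 274 CPM, and the other 7 are higher in VAT without overlap on that diet.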

How the data were processed

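Bulk RNA-seq of OT-I T cells gave 16 libraries in 4 groups of 4, grouped by the labelled tissue and diet. The authors deposited a table of raw counts per gene symbol, and all its sample columns were used. The submitters' processing notes name kallisto 0.42.4, DESeq2 and the human build GRCh38, although the rows carry mouse symbols, and the labels name a SMART-Seq v4 kit and a Smart-seq2 protocol; which was used is not settled by the labels. The column headers add a tag, Neg-OVA, that the labels do not explain. How reads of near-identical genes were divided is not given in the sources used here.

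Counts were tested as deposited with edgeR 4.0.16 in R 4.3.3: TMM scaling, filterByExpr, and the robust quasi-likelihood F-test over all 16 libraries with 1 coefficient per group and no covariate. The common dispersion was 1.52. P-values were adjusted by Benjamini-Hochberg over 15675 genes with a threshold of 0.05, for 5 comparisons. Levels are TMM-normalised CPM, given per library or as mean ± SD; standard errors are the log2 fold change over the root of F, and intervals are 95%. Named genes were the immune and constitutive catalytic subunits, the 11S genes, every called member, members under the filter, and by role the highest and lowest level per length. Levels per kilobase used the longest basic protein-coding transcript of GENCODE M21, known for 50 of 51 members. Alternatives were RLE and upper quartile scaling, no filter or 5 CPM in 4 libraries, DESeq2 1.42.0, limma 3.58.1 voom with weights for library quality, fits of only the groups in a comparison, replicate blocks, and each library left out; leaving out 3 VAT libraries was chosen after seeing the data. A gene of the pathway list is not reported here. Members and lists were chosen with earlier results of these data known. The fit was tested on simulated data. Within groups, libraries differed by far more than sampling noise (chi-square over degrees of freedom 288 to 1069), so none was counted as a duplicate.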

Additional observations from a re-analysis of the deposited data

Results flagged for a closer look

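In groups of 4, a library was flagged when its gap to the next, relative to the whole range, exceeded Dixon's 95% critical value; chance flags about 1 group in 20, and 7 of 68 groups of member levels and ratios were flagged. Of these, 5 involve lean VAT 1, the library with the largest share of missing genes. It had 904 CPM of Psmb10 against 477 to 533 in the other lean VAT libraries, 1286 CPM of Psme2 against 639.8 to 736, and 593 CPM of Psmb6 against 252 to 263. Its log2 ratio of summed immune to constitutive catalytic subunits was the lowest of its group, 1.99 against 2.30 to 2.36, and its log2 ratio of Psme2 to the median 19S member the highest, 3.02 against 1.75 to 1.86. HFD VAT 3, also among the 3 libraries with many missing genes, had 60.2 CPM of Psmb7 against 38.3 to 41.5. Lean LN 4 had 88.7 CPM of the Psme2 copy Psme2b against 119 to 120.4.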

How the results depend on the processing

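The number of members called higher in VAT was 5 to 9 on the high fat diet and 3 to 5 on the lean diet when 1 library was left out. Over all genes these fits called 304 to 370 of 16544 to 16646 genes higher on the high fat diet. On the lean diet they called 222 to 325 of 16503 to 16607 genes higher. It moved from 8 to 15 on the high fat diet with DESeq2, and from 4 on the lean diet to 7 with DESeq2, 9 with limma voom and 1 with only the lean groups in the fit. Over all genes, DESeq2 called 1186 higher and 1392 lower on the high fat diet (46.0% higher, 58.8% in the edgeR fit) and 907 higher and 662 lower on the lean diet (57.8% against 69.7%), limma voom 839 and 511 on the lean diet, and edgeR without a filter 285 and 156 and, on the lean diet, 218 and 108. Between the diets in VAT, edgeR called 1 gene higher and 8 lower, DESeq2 158 and 611, limma voom 21 and 11, and edgeR without the 3 VAT libraries 3 and 59; in LN, edgeR called 0, DESeq2 97 and 139, and voom 1 and 2. No member was among them. The cause was not tested. The summed ratio difference stayed within 0.77 to 1.02 and 0.86 to 1.11 with 1 library left out, and was 0.64 and 1.06 without the 3 VAT libraries. The median of all genes shifted by -0.24 (voom), -0.12 (replicate block) and -0.13 (without the 3 libraries) in the high fat tissue comparison, by -0.17 (voom) between the diets in VAT, and by 0.10 (RLE and DESeq2) and -0.13 (voom) in the difference of diet effects.

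Signs that turned belonged to values without a call. In VAT, the diet effect of Psmb8 became 0.053 with RLE scaling, 0.053 with DESeq2, 0.17 with voom and 0.19 without the 3 libraries, and that of Psmb6 0.23 with voom and 0.37 without them. The LN diet effect of Psmb9 was 0.18 with voom. The difference between diet effects became 0.041, 0.041, 0.14 and 0.18 for Psmb8 under the same 4 settings, and -0.0034 for Psmb6 with the 5 CPM filter. Without the 3 libraries the lean tissue effect was -0.011 for Psmb6 and -0.019 for Psmd8. With 1 library left out, the LN diet effect ran over -0.40 to 0.0013 (Psmb5), -0.13 to 0.20 (Psmb8), -0.30 to 0.34 (Psmb9), -0.27 to 0.040 (Psme2) and -0.27 to 0.0036 (Psme2b). The VAT diet effect ran over -0.016 to 0.39 (Psmb10), -0.37 to 0.23 (Psmb6), -0.18 to 0.25 (Psmb8), -0.014 to 0.40 (Psme1) and -0.037 to 0.29 (Psme2b), and the difference over -0.11 to 0.49 (Psmb6) and -0.25 to 0.24 (Psmb8). The lean tissue effect of Psmd8 ran over -0.082 to 0.32.

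With the replicate number as a block, 8 and 3 members were called higher on the high fat and lean diets, beside 2.14% and 1.51% of all genes; Psma2 lost its lean call (edgeR adjusted p = 0.0658). Over 8 same-numbered LN and VAT pairs, correlations of deviations ran from -0.10 to 0.03, and 1 of 8 libraries matched its own number best. The libraries of a group differed widely, so these correlations cannot settle whether a number stands for the same mouse in both tissues. Groups of 4 and genes missing from single VAT libraries limit all these values.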
